A study of Mus musculus with 24 samples.

Results

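Cardiomyocytes of mice given a guide virus against Myocd alone, the group titled MKO, were compared with cardiomyocytes of mice given a Cre virus, the group titled Ctrl. The members were all libraries with these titles, 6 in each group, which makes 12 of the 24 libraries of the series. MKO mice were Rosa-Cas9/Cas9 animals, which carry the Cas9 nuclease in the Rosa locus, and received AAV-Myocd-sgRNA, an adeno-associated virus (AAV) that carries guide RNA. Ctrl mice had the same Rosa-Cas9/Cas9 genotype and received AAV-Cre. The series' design text names the Cas9 allele of these groups Rosa-Cas9GFP. Both viruses were given on postnatal day 1 and the cells were collected when the mice were 4 weeks old, by Langendorff perfusion of the heart and fluorescence-activated sorting. The series also holds 6 libraries titled TKO and 6 titled DKO, which share one Mrtf-mutant genotype, labelled Mrfta-/-; Mrtfb-F/F; Rosa-Cas9/Cas9, that is, without Mrtfa and with floxed Mrtfb. TKO mice received AAV-Myocd-sgRNA and DKO mice AAV-Cre, so the same pair of viruses was compared in both genotypes without a shared library. Thus the groups compared differ in the virus as well as in the guide. The guide sequences, the promoters of the viruses and whether the guide virus also encodes Cre are not given in the sources used here. Whether each library stands for its own animal is not stated in the labels, and the p-values cover only how far these libraries spread.

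Myocardin, the product of Myocd, is a coactivator that is restricted to heart and smooth muscle. It has no strong DNA binding of its own and acts by binding serum response factor (Srf), which sits on a short A/T-rich element called the CArG box. The myocardin-related factors Mrtfa and Mrtfb use the same partner and carry signals from the actin cytoskeleton, while ETS factors such as Elk4 compete with them for Srf. Genes with CArG boxes include many of the actin cytoskeleton, the sarcomere and smooth muscle contraction.

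Read counts were obtained with a full-length cDNA method. Total counts averaged 11.57 ± 1.37 M in MKO and 9.59 ± 1.40 M in Ctrl (SD, n = 6 each), so MKO libraries were on average the deeper ones. The numbers of genes with a count overlapped, at 14578 to 14962 in MKO and 14072 to 14741 in Ctrl. By sex-linked transcripts, 4 of 6 libraries were male in MKO, 4 of 6 in Ctrl, 3 of 6 in TKO and 1 of 6 in DKO. All 17 ventricular cardiomyocyte markers were detected well enough to be tested. Levels are given below as CPM, counts scaled to a common library size with TMM factors, and differences as log2 ratios with their standard error. A gene was called at a Benjamini-Hochberg adjusted p under 0.05 in edgeR's quasi-likelihood test over 12281 genes.

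No gene was called between MKO and Ctrl by that test (0 of 12281, 0%), and the smallest adjusted p was 0.414. At an unadjusted p under 0.05 stood 762 genes (6.2%), of which 441 (3.59%) had the higher mean in MKO and 321 (2.61%) the lower one, where 614 are expected by chance. The median standard error of a log2 ratio was 0.157. Other fits of the same counts gave short lists of calls. DESeq2 on the 12 MKO and Ctrl libraries called 32 of 10893 genes (0.294%), 14 higher (0.129%) and 18 lower (0.165%) in MKO, while DESeq2 on all 24 libraries called 1, limma voom with quality weights called 3, and edgeR on the 12 libraries called 0. The authors' deposited table, whose fold changes were matched by a refit without Ctrl 3, holds 15 genes with an adjusted p under 0.05 among 13667 (0.11%), 8 higher (0.0585%) and 7 lower (0.0512%) in MKO. Leaving out 1 library from the 24 left the edgeR count at 0, except without Ctrl 2, where Npdc1 was called (log2 ratio 1.11, adjusted p = 0.0487).

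The targeted gene was examined in every library. Myocd (chromosome 11, 65176571 to 65269989, mm10) had a lowest, median and highest level of 120, 140 and 187 CPM in MKO libraries, against 153, 182 and 234 CPM in Ctrl libraries. The ranges overlapped, and 5 of 6 MKO libraries lay below the Ctrl mean. Means were 144 ± 24.1 CPM in MKO and 185 ± 27.6 CPM in Ctrl (SD, n = 6 each), with a log2 ratio of -0.37 ± 0.13 (edgeR, unadjusted p = 0.0114, adjusted p = 0.717). In the Mrtf-mutant genotype the same guide virus gave 230 CPM in TKO and 206 CPM in DKO as medians and a log2 ratio of 0.23 ± 0.13 (edgeR, adjusted p = 0.298). Edits by Cas9 are often short insertions or deletions that leave the number of transcripts as it was, and the share of edited Myocd alleles was not measured.

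The partner and relatives of myocardin overlapped between MKO and Ctrl and were not called. Srf spanned 72.8 to 113 CPM in MKO libraries and 69.4 to 96.6 CPM in Ctrl libraries, with a log2 ratio of 0.10 ± 0.14 (edgeR, adjusted p = 0.904). Its ratio was -0.01 without MKO 3, the library with the highest level. Mrtfa, listed as Mkl1, had a log2 ratio of 0.35 ± 0.19, and Mrtfb, listed as Mkl2, one of 0.07 ± 0.11 (edgeR, adjusted p = 0.779 and 0.912). In the Mrtf-mutant genotype Srf fell in TKO relative to DKO, by 0.61 ± 0.15 on the log2 scale (edgeR, adjusted p = 0.0115). Its levels there spanned 38.3 to 50.9 CPM in TKO libraries and 52.0 to 105 CPM in DKO libraries, without overlap. The difference between the log2 ratios of Srf in the 2 genotypes was 0.70, which was not called (edgeR interaction, adjusted p = 0.13).

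The stretches of 250 bases upstream of the RefSeq starts of 3 genes (RefSeq, GRCm38.p6) are shown because they hold, or lack, the element that Srf reads. The CArG box was searched on both strands as CC, then 6 bases that are each A or T, then GG, and matches are in capitals. Srf is shown as myocardin's partner (chr17:46556163-46556412, minus strand), Myl9 as a gene with a match that stood higher in MKO (chr2:156775214-156775463, plus strand), and Kcnip2 as one that stood lower (chr19:45816064-45816313, minus strand).
Srf: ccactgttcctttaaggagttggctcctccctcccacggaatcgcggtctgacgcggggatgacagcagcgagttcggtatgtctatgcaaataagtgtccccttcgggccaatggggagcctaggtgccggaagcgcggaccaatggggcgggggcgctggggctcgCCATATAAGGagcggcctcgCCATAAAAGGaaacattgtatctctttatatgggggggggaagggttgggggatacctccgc
Myl9: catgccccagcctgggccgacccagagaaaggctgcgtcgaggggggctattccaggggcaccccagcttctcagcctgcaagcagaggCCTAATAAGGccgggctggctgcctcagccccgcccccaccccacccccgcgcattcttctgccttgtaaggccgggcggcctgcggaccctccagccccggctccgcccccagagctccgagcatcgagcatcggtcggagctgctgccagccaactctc
Kcnip2: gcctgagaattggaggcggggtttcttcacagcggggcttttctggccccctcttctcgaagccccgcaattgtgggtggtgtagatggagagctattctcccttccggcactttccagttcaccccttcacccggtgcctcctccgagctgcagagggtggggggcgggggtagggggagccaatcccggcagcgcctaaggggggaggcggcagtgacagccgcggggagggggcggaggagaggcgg
The Srf window holds 2 matches, which begin 82 and 62 bases before the start, and the Myl9 window holds 1, which begins 161 bases before it. The Kcnip2 window holds none. Among all 32851 windows of this length in the RefSeq table, 482 (1.47%) hold a match. Of the 13 named genes among the 15 called in the authors' deposited table, 8 had a window, and 1 of these, Myl9, holds a match. Of the 20 windows found for the 24 top-ranked genes described below, 0 hold one. A match is a sequence of letters and not a measured site.

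The genes called in the authors' deposited table were read in all 4 groups, because TKO and DKO libraries had no part in choosing them. Lower in MKO were Kcnip2, Tnnc1, Itgb1bp2, Ccdc69, Sh3bgr and Hrasls. Higher in MKO were the surface proteins Cd44 and Ncam1 and the genes Cyp4b1, Myl9, Plekhh1, Tgfbi and Mtch1. For 14 of the 15 the sign of the log2 ratio was the same in TKO relative to DKO, beside 58.8% of all 12281 genes. There 8 of the 15 (53.3%) were called in that direction, 3 higher and 5 lower, and 0 in the opposite one. Over all 12281 genes, 784 (6.38%) were called between TKO and DKO, 511 higher (4.16%) and 273 lower (2.22%), a total that was 495 without TKO 4. The count of 8 lay between 7 and 9 when 1 library was left out. The spread in edgeR's test was estimated from all 24 libraries, so MKO and Ctrl libraries, on which the 15 were chosen, also enter it. Both steps can therefore favour genes of low spread. How much of the gap to the all-gene shares comes from this was not tested. The difference between the genotypes was called for 0 of the 15 (edgeR interaction, adjusted p between 0.0887 and 0.945), beside 57 of 12281 genes (0.464%), a count that lay between 14 (without DKO 2) and 585 (without Ctrl 2) when 1 library was left out.

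**Figure D1:**
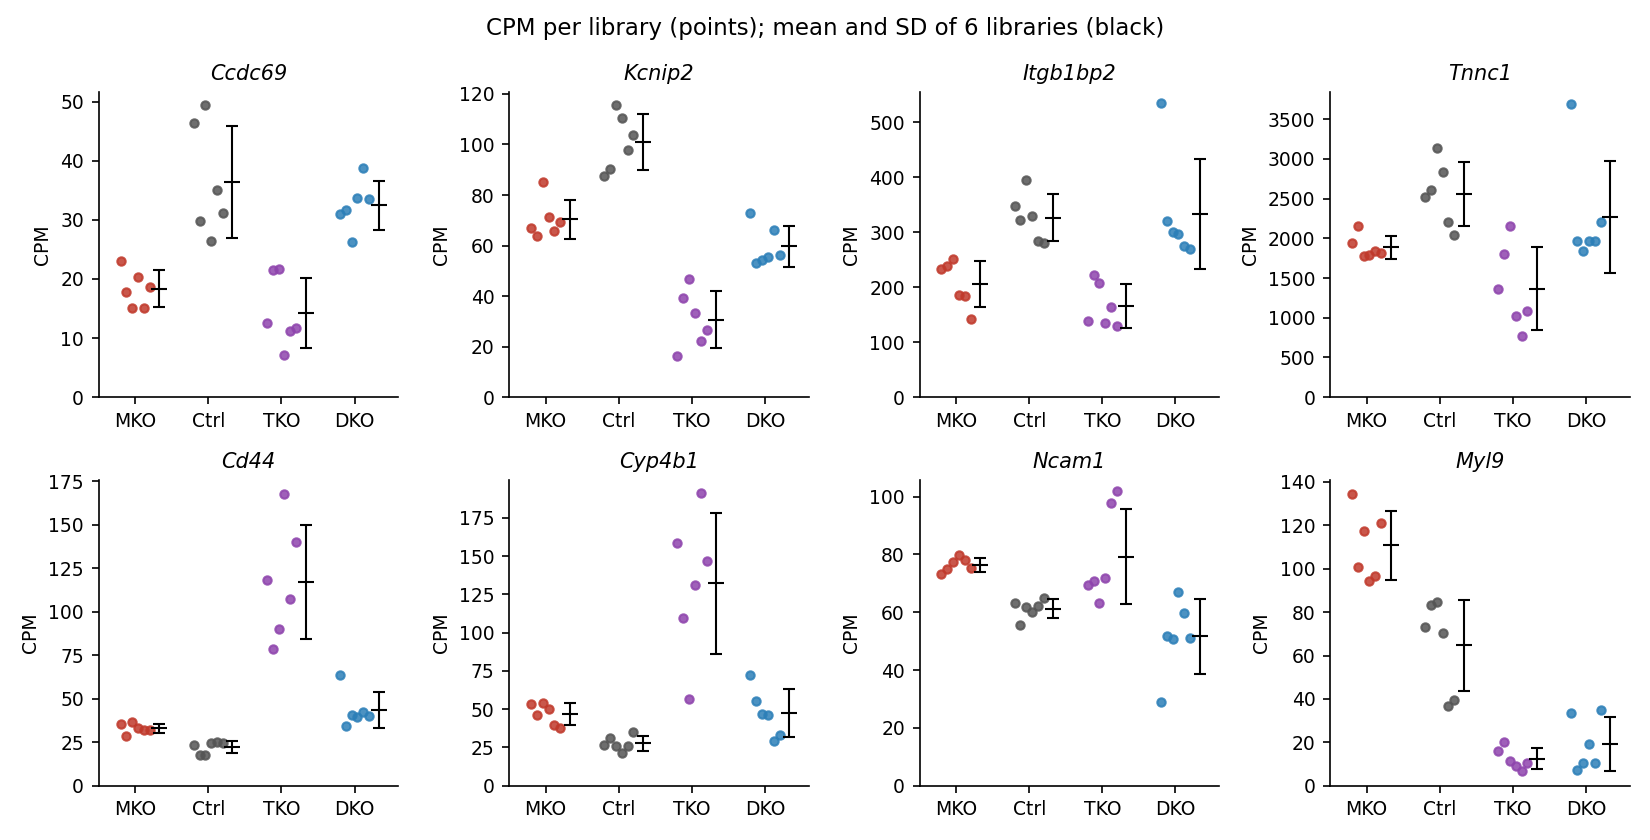
CPM (vertical axes) of 8 genes called in the authors' deposited table, in each library of MKO, Ctrl, TKO and DKO (horizontal axes); points are libraries, black marks the mean and SD of 6. MKO and Ctrl points do not overlap for any gene but Tnnc1, and Myl9 alone stands higher in MKO than Ctrl and lower in TKO than DKO by mean.

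Kcnip2 (chromosome 19, 45793670 to 45815803, mm10) encodes KChIP2, the accessory subunit of the potassium channels that carry the transient outward current of ventricular cells. It had a lowest, median and highest level of 63.8, 68.0 and 85.1 CPM in MKO libraries, against 87.7, 101 and 116 CPM in Ctrl libraries. The groups did not overlap, although MKO 3, the highest MKO library, lay just below Ctrl 1. Such absence of overlap was found for 72 of all 12281 genes (0.586%), 39 with MKO higher (0.318%) and 33 with MKO lower (0.269%). It also held for 14 of the 15 deposited calls, which were chosen on these libraries, so nothing is read from that count. The log2 ratio of Kcnip2 was -0.52 ± 0.17 (edgeR, adjusted p = 0.698), and the authors' deposited table gives -0.50 with an adjusted p of 0.00362. In TKO libraries Kcnip2 spanned 16.4 to 46.6 CPM, against 53.3 to 72.9 CPM in DKO libraries. It fell there by 0.95 ± 0.17 on the log2 scale (edgeR, adjusted p = 0.000822).

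Ccdc69 (chromosome 11, 55049738 to 55078131, mm10), a coiled-coil protein known in human cells for binding microtubules of the dividing spindle, had the smallest p in edgeR of the 24 top-ranked genes described below. It had a lowest, median and highest level of 15, 18.2 and 23.1 CPM in MKO libraries, against 26.5, 33.2 and 49.5 CPM in Ctrl libraries. The log2 ratio was -0.99 ± 0.21 (edgeR, adjusted p = 0.414) and no library of either group reached the range of the other. It is the gene called by the most fits: the adjusted p was 0.0215 with DESeq2 on 24 libraries, 3.25e-05 with DESeq2 on 12, 0.0439 with limma voom with quality weights, and 0.000371 in the authors' deposited table. In TKO libraries it spanned 7.13 to 21.6 CPM, against 26.2 to 38.8 CPM in DKO libraries, again without overlap. Ccdc69 fell there by 1.18 ± 0.21 on the log2 scale (edgeR, adjusted p = 0.000822).

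Itgb1bp2 (chromosome X, 101449109 to 101453541, mm10) encodes melusin, a muscle protein that binds the tail of integrin beta 1 and is known in mice for its role under pressure load. It had a lowest, median and highest level of 142, 210 and 252 CPM in MKO libraries, against 280, 326 and 395 CPM in Ctrl libraries. The log2 ratio was -0.67 ± 0.17 (edgeR, adjusted p = 0.698) and the groups did not overlap. It fell in TKO relative to DKO by 1.0 ± 0.17 on the log2 scale (edgeR, adjusted p = 0.000676), with 129 to 222 CPM in TKO and 270 to 535 CPM in DKO libraries.

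Tnnc1 (chromosome 14, 31208312 to 31211711, mm10), cardiac troponin C, is the calcium sensor of the thin filament. It lay at 1777, 1829 and 2154 CPM as lowest, median and highest level in MKO libraries, against 2047, 2563 and 3137 CPM in Ctrl libraries. Here MKO 2 lay above Ctrl 6, so the ranges overlapped, and the log2 ratio was -0.44 ± 0.20 (edgeR, adjusted p = 0.772). In TKO relative to DKO it fell by 0.73 ± 0.20 on the log2 scale (edgeR, adjusted p = 0.0254). That edgeR call was lost without DKO 1, the highest DKO library (log2 ratio -0.54, adjusted p = 0.0545), and without TKO 4, TKO 5 or TKO 6 (adjusted p = 0.07, 0.0576 and 0.0647).

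Sh3bgr, a small SH3-binding protein abundant in heart and skeletal muscle, lay at 390 to 447 CPM in MKO libraries and 492 to 610 CPM in Ctrl libraries. Its log2 ratio was -0.33 ± 0.15 (edgeR, adjusted p = 0.772), and -0.47 ± 0.15 in TKO relative to DKO (adjusted p = 0.0616). There it was called lower by edgeR without DKO 1, TKO 2 or TKO 3 (adjusted p = 0.0403, 0.0336 and 0.00571). Hrasls, an enzyme of phospholipid metabolism, lay at 8.0 to 12.8 CPM in MKO libraries and 13.3 to 29.6 CPM in Ctrl libraries, with a log2 ratio of -0.98 ± 0.76 (edgeR, adjusted p = 0.809). The wide error of Hrasls goes with its levels in the Mrtf-mutant libraries, which spanned 0.0871 to 11.5 CPM in TKO and 0 to 9.10 CPM in DKO, and which share the estimate of spread.

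Cd44 (chromosome 2, 102811142 to 102901665, mm10), the receptor for the matrix sugar hyaluronan, had a lowest, median and highest level of 28.8, 32.5 and 36.5 CPM in MKO libraries, against 17.5, 24 and 24.9 CPM in Ctrl libraries. All MKO libraries lay above all Ctrl libraries, and the log2 ratio was 0.57 ± 0.16 (edgeR, adjusted p = 0.698). With the guide virus in the Mrtf-mutant genotype Cd44 rose by 1.44 ± 0.16 on the log2 scale (edgeR, adjusted p = 3.27e-06), to 78.6 to 168 CPM in TKO, against 34.5 to 63.7 CPM in DKO. The difference between the 2 log2 ratios was -0.87 and was not called (edgeR interaction, adjusted p = 0.0887).

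Cyp4b1 (chromosome 4, 115624728 to 115647705, mm10), a cytochrome P450 of the fatty acid hydroxylase family, had a lowest, median and highest level of 37.4, 48.2 and 54.3 CPM in MKO libraries, against 21.5, 26.3 and 34.9 CPM in Ctrl libraries. Its log2 ratio was 0.76 ± 0.22 (edgeR, adjusted p = 0.698), without overlap. It rose in TKO relative to DKO by 1.49 ± 0.22 on the log2 scale (edgeR, adjusted p = 0.000144), although TKO 3 at 56.5 CPM lay within the DKO range of 29.4 to 72.5 CPM.

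Ncam1 (chromosome 9, 49502146 to 49799069, mm10), the neural cell adhesion molecule, showed a small difference with little spread. Its MKO libraries spanned 73.1 to 79.8 CPM and its Ctrl libraries 55.5 to 65.0 CPM, a log2 ratio of 0.32 ± 0.14 (edgeR, adjusted p = 0.767). It rose by 0.61 ± 0.14 on the log2 scale in TKO relative to DKO (edgeR, adjusted p = 0.0069), where DKO 4 at 67.1 CPM lay within the TKO range of 63.3 to 102 CPM. Mtch1, a protein of the mitochondrial outer membrane, spanned 226 to 237 CPM in MKO and 180 to 208 CPM in Ctrl libraries, with a log2 ratio of 0.26 ± 0.16 (edgeR, adjusted p = 0.786). In TKO relative to DKO its ratio was 0.04 ± 0.16 (edgeR, adjusted p = 0.883), and DKO 1 stood far above the other DKO libraries at 467 CPM. Without DKO 1 the ratio was 0.31 and Mtch1 was called higher in TKO (edgeR, adjusted p = 0.02).

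Plekhh1, a protein with a membrane-binding domain, lay at 57.7 to 79.2 CPM in MKO libraries and 34.0 to 56.6 CPM in Ctrl libraries, a log2 ratio of 0.66 ± 0.26 (edgeR, adjusted p = 0.717). Tgfbi, a secreted matrix protein, had the largest ratio of the 13 named genes at 1.41 ± 0.34 (edgeR, adjusted p = 0.685), on low levels of 2.23 to 4.82 CPM in MKO and 0.614 to 2.04 CPM in Ctrl libraries. Both were positive in TKO relative to DKO and not called there, at 0.40 ± 0.26 and 0.40 ± 0.32 (edgeR, adjusted p = 0.344 and 0.442).

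Myl9 (chromosome 2, 156775464 to 156781657, mm10) was the exception in direction. It encodes the regulatory light chain of smooth muscle and nonmuscle myosin and holds the CArG box shown above. Its lowest, median and highest levels were 94.5, 109 and 134 CPM in MKO libraries, against 36.8, 71.9 and 84.5 CPM in Ctrl libraries. The groups did not overlap, and within Ctrl 2 libraries, Ctrl 5 and Ctrl 6, lay at 36.8 and 39.6 CPM while the other 4 lay at 70.6 to 84.5 CPM. The log2 ratio was 0.78 ± 0.31 (edgeR, adjusted p = 0.72). In TKO relative to DKO it was -0.61 ± 0.33 (edgeR, adjusted p = 0.261), and the difference of 1.39 between the genotypes was not called (edgeR interaction, adjusted p = 0.188).

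**Figure D2:**
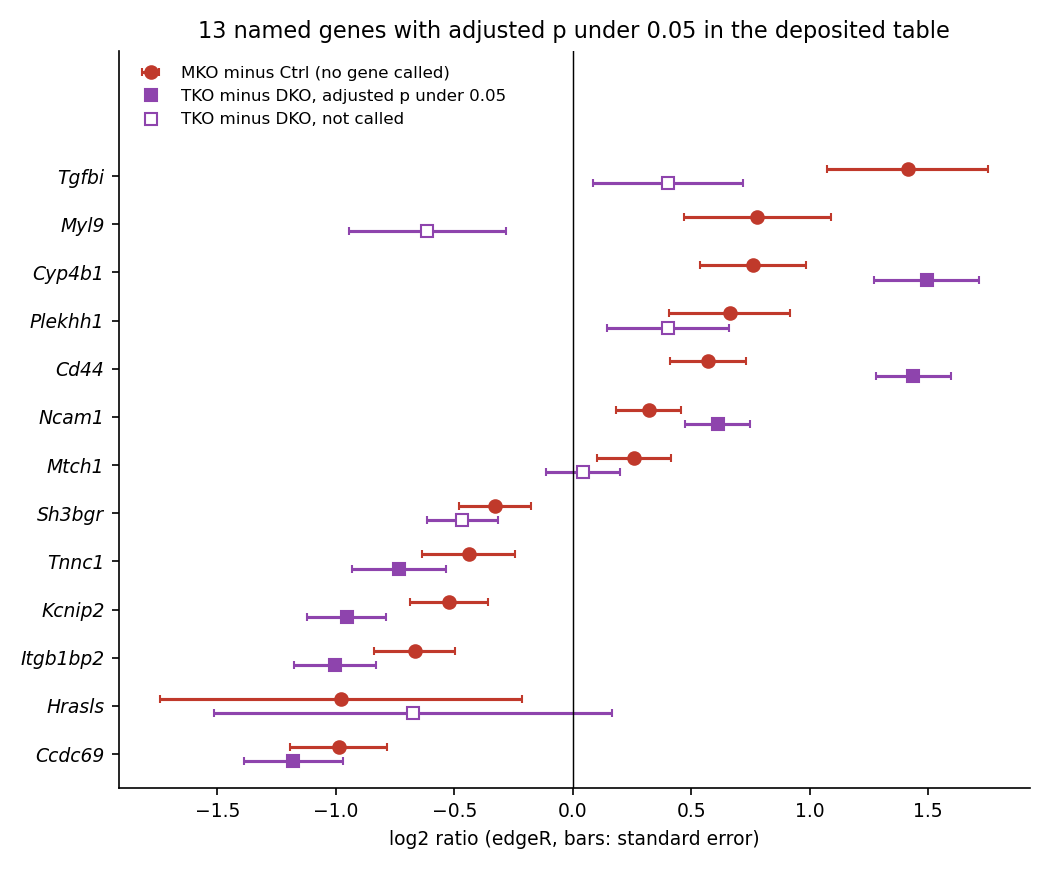
Log2 ratios with standard errors (horizontal axis) of the 13 named genes called in the authors' deposited table (vertical axis), for MKO minus Ctrl (circles) and TKO minus DKO (squares, filled where edgeR's adjusted p was under 0.05). The 2 ratios of a gene lie on the same side of 0 for every gene but Myl9, which lies at 0.78 for MKO minus Ctrl and -0.61 for TKO minus DKO.

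Read in the other direction, genes called between TKO and DKO mostly leaned the same way in MKO. Of the 511 that rose in TKO, 404 (79.1%) had a positive log2 ratio in MKO relative to Ctrl, and of the 273 that fell, 203 (74.4%) had a negative one, while over all 12281 genes the signs of the 2 ratios were the same for 58.8%. The shift in MKO was small: the median log2 ratio was 0.12 for the genes that rose in TKO and -0.11 for those that fell, beside 0.62 and -0.59 in TKO relative to DKO. An unadjusted p under 0.05 in the same direction was reached in MKO by 60 of the 511 (11.7%) and by 31 of the 273 (11.4%), where 3.59% and 2.61% of all genes reached it, and in the opposite direction by 3 and 8. Both contrasts share an estimate of spread per gene, so genes called between TKO and DKO tend to have small errors in MKO relative to Ctrl. The all-gene shares lack that choice, and its part in the gap was not tested. Without TKO 4 only 495 genes were called between TKO and DKO.

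The genes with the smallest unadjusted p between MKO and Ctrl were listed by rank and not as called, 12 higher and 12 lower in MKO, all of at least 10 CPM in the higher group. Their unadjusted p lay under 0.05 by choice. In TKO relative to DKO 22 of these 24 had the same sign and 10 (41.7%) were called in the same direction, 7 of the 12 higher and 3 of the 12 lower ones. Over all 12281 genes 58.8% had the same sign, and 4.16% were called higher and 2.22% lower in TKO. The ranking and these calls came from 1 fit with a shared estimate of spread. Both can therefore favour genes of low spread, and the 10 CPM minimum is a further choice that the all-gene shares lack. How much of the gap between the shares comes from this was not tested. Among the 12 ranked genes that stood higher, beside Cd44 and Cyp4b1, was Mfge8, a secreted bridge between phosphatidylserine and integrins. Mfge8 lay at 187, 220 and 237 CPM as lowest, median and highest level in MKO libraries and at 152, 172 and 200 CPM in Ctrl libraries, which overlapped in part. Its log2 ratio was 0.32 ± 0.09 (edgeR, unadjusted p = 0.00138, adjusted p = 0.698), and 0.91 ± 0.09 in TKO relative to DKO, where it rose (adjusted p = 7.31e-07). The difference of -0.58 between the genotypes was called (edgeR interaction, adjusted p = 0.0393), and not without MKO 1, 2, 4 or 5, Ctrl 3 or 4, TKO 1, 4 or 6, or DKO 2, 3, 4 or 6 in turn (adjusted p up to 0.0765).

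Ptpra, a receptor tyrosine phosphatase, spanned 57.2 to 63.8 CPM in MKO and 41.4 to 54.9 CPM in Ctrl libraries, without overlap (log2 ratio 0.32 ± 0.10). It rose in TKO relative to DKO by 0.53 ± 0.09 on the log2 scale (edgeR, adjusted p = 0.000872). Gas2l1, a linker of actin and microtubules, had log2 ratios of 0.48 ± 0.13 in MKO and 0.53 ± 0.13 in TKO, against their Cre virus groups (edgeR, adjusted p = 0.698 and 0.0127). For Lpin2, a phosphatidate phosphatase, they were 0.46 ± 0.13 and 0.56 ± 0.12 (edgeR, adjusted p = 0.698 and 0.00624). Arhgdia had 0.28 ± 0.08 and 0.33 ± 0.08 (edgeR, adjusted p = 0.698 and 0.0195), and the second call was lost without TKO 1 (adjusted p = 0.0517).

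Elk4, an ETS factor that binds Srf in competition with myocardin, had the smallest unadjusted p of the 12 ranked genes that stood higher. It lay at 15.5, 21 and 29.8 CPM as lowest, median and highest level in MKO libraries, against 12, 14.1 and 17.4 CPM in Ctrl libraries. The ranges overlapped at their edges, 6 of 6 MKO libraries lay above the Ctrl mean, and the log2 ratio was 0.54 ± 0.14 (edgeR, unadjusted p = 0.000618, adjusted p = 0.698). Elk4 spanned 16.3 to 23.95 CPM in TKO and 14.3 to 20.85 CPM in DKO libraries, with wide overlap. Htra3, a secreted serine protease, had a log2 ratio of 1.09 ± 0.28 on levels of 5.03 to 13.9 CPM in MKO and 3.33 to 7.43 CPM in Ctrl libraries. Among the lower ones were Sox6, a transcription factor of muscle fibre type, at -0.54 ± 0.17, Rgs6, a brake on G protein signals in the heart, at -0.30 ± 0.09, and Dnajb1, a heat shock cochaperone, at -0.60 ± 0.19.

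Genes of the contractile apparatus mostly had slightly lower means in MKO, and none of them was called by edgeR between MKO and Ctrl. Over all 12281 genes, 50% had a positive and 50% a negative log2 ratio, with a median of 0.00. Of 23 thick filament genes 17 had a negative ratio (median -0.25), of 18 thin filament genes 15 (median -0.16), and of 25 Z-disc genes 16 (median -0.06). An unadjusted p under 0.05 was reached by 4, 5 and 2 of them, all with a negative ratio, where 2.61% of all genes reached it with a negative one. In TKO relative to DKO the medians of these lists were -0.08, 0.04 and 0.19, and -0.04, 0.12 and 0.265 without DKO 1. In the fit with DKO 1, edgeR called 4, 4 and 6 of the genes higher and 2, 3 and 0 lower in TKO. The shares over all genes were 4.16% and 2.22%. Without DKO 1 it called 3, 4 and 10 higher and 2, 0 and 0 lower. Among all tested genes 748 were then called higher and 352 lower. DESeq2 on the 12 libraries called Tnnc1 (adjusted p = 0.00379) and Trim55 (adjusted p = 0.0403) lower. Ttn, the giant spring of the sarcomere, lay at 2317, 3506 and 4495 CPM as lowest, median and highest level in MKO libraries, against 3457, 5016 and 6843 CPM in Ctrl libraries, with overlap (log2 ratio -0.52 ± 0.22, edgeR, adjusted p = 0.767). Myom1, the myomesin of the M-band, had a log2 ratio of -0.26 ± 0.10, and Trim55, a ubiquitin ligase of the sarcomere, one of -0.27 ± 0.09. Nexn, an actin-binding protein of the Z-disc, lay at 317 to 522 CPM in MKO and 459 to 579 CPM in Ctrl libraries (log2 ratio -0.30 ± 0.10, edgeR, unadjusted p = 0.00502, adjusted p = 0.698).

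Calcium handling genes leaned the same way, with 29 of 36 negative and a median log2 ratio of -0.09. Casq2, the calcium store protein calsequestrin, lay at 1886, 1936 and 2192 CPM as lowest, median and highest level in MKO libraries, against 1975, 2391 and 2567 CPM in Ctrl libraries. Its log2 ratio was -0.23 ± 0.08 (edgeR, unadjusted p = 0.00748, adjusted p = 0.712). Trdn, triadin, which anchors calsequestrin to the release channel, had a ratio of -0.22 ± 0.09, and MKO 6 at 358 CPM was its lowest library. Cmya5, a large scaffold of the Z-disc and the sarcoplasmic reticulum, had one of -0.38 ± 0.14, with 241 to 306 CPM in MKO and 309 to 473 CPM in Ctrl libraries, which did not overlap. Potassium channel genes were split, with 13 of 25 positive, and Kcnn2, a calcium-activated potassium channel, had a ratio of -0.28 ± 0.11 in MKO (edgeR, adjusted p = 0.717). Kcnn2 fell in TKO relative to DKO by 0.46 ± 0.11 on the log2 scale (edgeR, adjusted p = 0.0102).

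The most uniform list was that of oxidative phosphorylation. All 49 tested genes of the respiratory chain and ATP synthase had a negative log2 ratio, between -0.30 and -0.01 with a median of -0.15, while 0 reached an unadjusted p under 0.05. The count was 49 of 49 too with RLE size factors, upper quartile scaling and DESeq2 on the 12 libraries. It was also 49 of 49 in edgeR on 22 libraries, without Ctrl 3 and DKO 1. These genes move together in a library, so they are not 49 separate observations. Their summed level lay at 51000 to 62550 CPM in MKO libraries, against 52980 to 71040 CPM in Ctrl libraries, with wide overlap. In TKO relative to DKO the median was -0.39, with 0 called higher and 5 lower (edgeR), where 2.22% of all genes were called lower. The sum lay at 43630 to 53920 CPM in TKO libraries, against 104100 CPM in DKO 1 and 50840 to 57060 CPM in the other 5 DKO libraries. Without DKO 1 the median was -0.13, with 2 called lower. Cytosolic ribosomal protein genes, many of which have near-identical copies and are uncertain for that reason, had 37 of 43 negative (median -0.16). Fatty acid oxidation genes had 30 of 47 negative (median -0.05), and glycolysis genes 22 of 28 (median -0.05).

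Ppargc1b encodes the coactivator PGC-1 beta, known for raising mitochondrial gene expression in the heart. It had a lowest, median and highest level of 120, 136 and 172 CPM in MKO libraries, against 158, 176 and 199 CPM in Ctrl libraries. Only MKO 3 lay within the Ctrl range, and the log2 ratio was -0.35 ± 0.12 (edgeR, adjusted p = 0.717, and 0.0341 with DESeq2 on the 12 libraries). Ppargc1b fell in TKO relative to DKO by 0.45 ± 0.12 on the log2 scale (edgeR, adjusted p = 0.0276), a call lost without TKO 4, TKO 5, TKO 6 or DKO 4 (adjusted p = 0.0618, 0.0519, 0.0729 and 0.0566). Acot2, a mitochondrial thioesterase that cleaves fatty acyl-CoA, stood the other way, at 75.5 to 113 CPM in MKO and 44.5 to 88.1 CPM in Ctrl libraries (log2 ratio 0.43 ± 0.15, edgeR, adjusted p = 0.717).

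**Figure D3:**
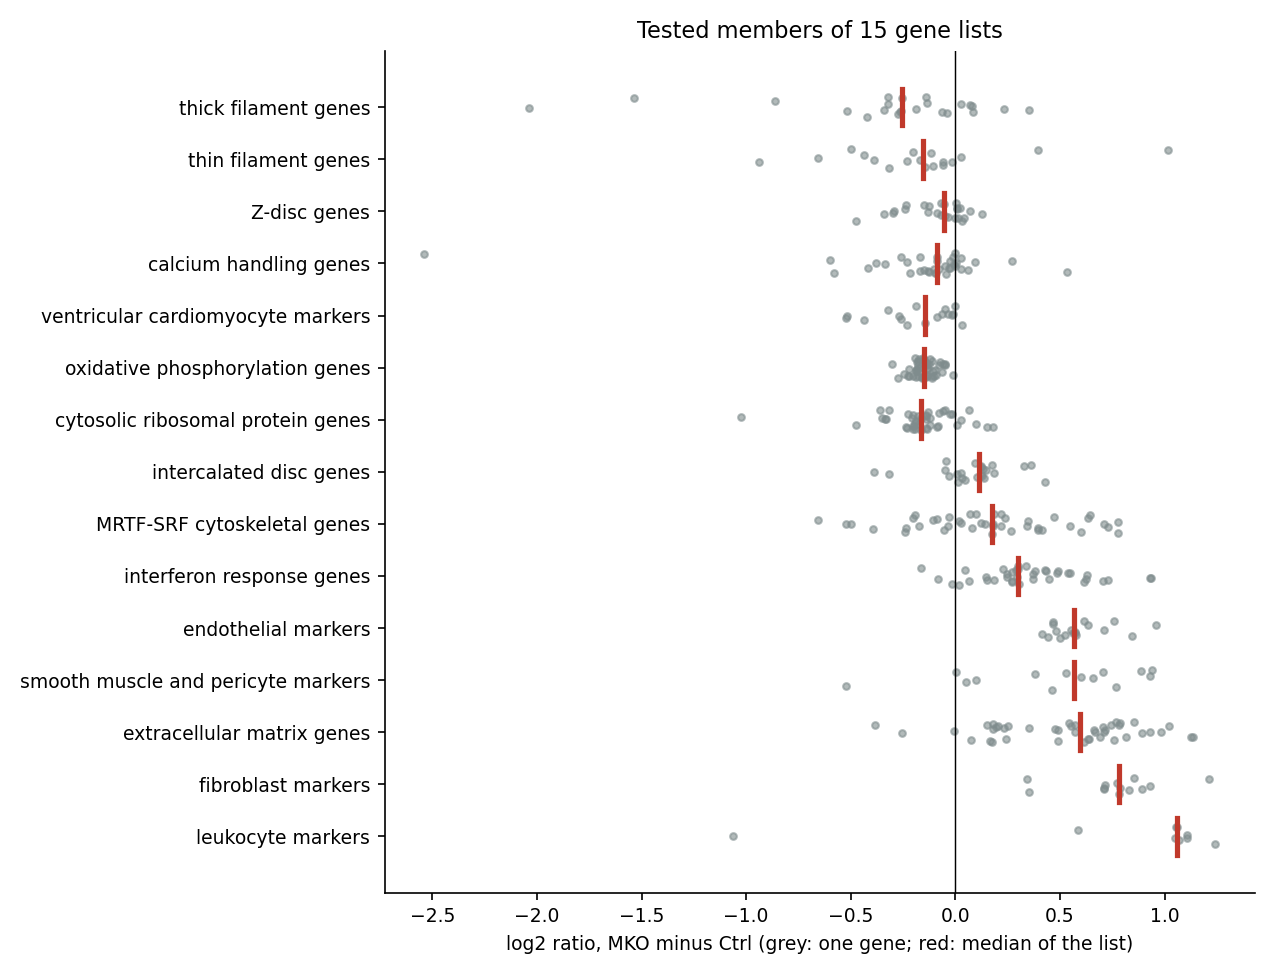
Log2 ratios of MKO minus Ctrl (horizontal axis) for the tested members of 15 gene lists (vertical axis); each grey point is a gene and each red bar the median of its list. Contractile, calcium handling, oxidative phosphorylation and ribosomal lists have medians between -0.25 and -0.06, and lists of matrix genes and of other cell types medians between 0.57 and 1.06.

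Targets of Srf did not stand on one side. Of 43 MRTF-SRF cytoskeletal genes 29 had a positive log2 ratio (median 0.18, and 0.08 in the 22 libraries without Ctrl 3 and DKO 1). Of 17 smooth muscle contractile genes 9 were positive (median 0.00). Cfl1, cofilin, which severs actin filaments, lay at 67.3 to 91.4 CPM in MKO and 52.8 to 84.9 CPM in Ctrl libraries, a log2 ratio of 0.35 ± 0.11. Without Ctrl 2 the other Ctrl libraries of Cfl1 all lay below the MKO range. Cap1, a partner of cofilin, had a ratio of 0.64 ± 0.22, and Actb, the cytoplasmic actin, whose counts are uncertain because actin genes are alike, one of 0.78 ± 0.29 (edgeR, adjusted p = 0.698 and 0.717). Acta2, the smooth muscle actin that immature cardiomyocytes also make, stood lower, at 411, 515 and 757 CPM as lowest, median and highest level in MKO libraries and 585, 790 and 961 CPM in Ctrl libraries (log2 ratio -0.52 ± 0.25, edgeR, adjusted p = 0.772). Its ratio therefore had the sign opposite to that of Myl9, although both belong to the smooth muscle contractile list. Intercalated disc genes had 19 of 24 positive (median 0.11), with Ctnnd1, the p120 catenin of cell junctions, at 150 to 172 CPM in MKO and 109 to 147 CPM in Ctrl libraries, without overlap (log2 ratio 0.33 ± 0.16, edgeR, adjusted p = 0.772).

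Signalling and stress genes gave a few even differences and no calls by edgeR. Etv5, an ETS factor induced by growth factor signals, lay at 18.1, 21.5 and 30.0 CPM as lowest, median and highest level in MKO libraries, against 15.8, 17.4 and 18.3 CPM in Ctrl libraries. Its log2 ratio was 0.39 ± 0.16 in MKO (edgeR, adjusted p = 0.738) and 1.81 ± 0.16 in TKO relative to DKO, where it rose (adjusted p = 7.44e-08). The difference of -1.42 between the genotypes was called (edgeR interaction, adjusted p = 0.00171), also without each library in turn (adjusted p between 0.0013 and 0.00521). Grk5, a kinase that silences adrenergic receptors, had ratios of 0.50 ± 0.17 in MKO and 0.80 ± 0.16 in TKO, where it rose (edgeR, adjusted p = 0.698 and 0.00211). Of 27 p53 response genes 20 were positive (median 0.10), among them Phlda3, an inhibitor of Akt, at 0.35 ± 0.12, and Bbc3, the cell death gene Puma, at 0.66 ± 0.24. An unadjusted p under 0.05 in edgeR was reached by 3 with a positive ratio and by 1, Ccng1, with a negative one. The shares of all genes were 3.59% and 2.61%. Ccng1 lay at 633 to 745 CPM in MKO and 637 to 1186 CPM in Ctrl libraries. Summed, the list lay at 1966 to 2184 CPM in MKO and 1958 to 2699 CPM in Ctrl libraries. Of 23 immediate early genes 16 were negative (median -0.23), and Atf4, the main factor of the integrated stress response, had a ratio of -0.49 ± 0.20. The list of integrated stress response genes was split, with 15 of 25 positive (median 0.02).

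Most markers of fibroblasts, endothelial cells, smooth muscle cells and pericytes, and leukocytes had positive log2 ratios in MKO, without a call by edgeR. In bulk RNA, more cells of a type and more RNA per cell cannot be told apart. The ratio was positive for 13 of 13 tested fibroblast markers (median 0.78, 7 with an unadjusted p under 0.05), 18 of 18 endothelial markers (median 0.57, 2), 13 of 14 smooth muscle and pericyte markers (median 0.57, 2) and 8 of 9 leukocyte markers (median 1.06, 7). The other tested leukocyte marker, Cd68, was negative (log2 ratio -1.06) and also had an unadjusted p under 0.05 in edgeR. Extracellular matrix genes were positive for 41 of 44 (median 0.59, 12), and interferon response genes for 35 of 38 (median 0.30, 2). Of all 12281 genes 50% were positive, and 3.59% were positive with an unadjusted p under 0.05 in edgeR. In the 22 libraries without Ctrl 3 and DKO 1 the medians were 0.63 for fibroblast, 0.35 for endothelial and 0.43 for smooth muscle and pericyte markers. They were 0.91 for leukocyte markers, 0.39 for matrix and 0.18 for interferon genes. In TKO relative to DKO the medians had the other sign, at -0.57 for fibroblast, -0.68 for endothelial, -0.58 for smooth muscle and pericyte and -0.55 for matrix genes. They were small there for leukocyte markers (-0.085) and interferon genes (-0.016).

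Per library these markers varied widely within both groups. Summed over the list, fibroblast markers lay at 528, 731 and 1281 CPM as lowest, median and highest in MKO libraries, against 236, 451 and 841 CPM in Ctrl libraries. Endothelial markers lay at 856, 1148 and 1815 CPM in MKO libraries, against 203, 679 and 2172 CPM in Ctrl libraries, where Ctrl 3 was the lowest and Ctrl 2 the highest of all 12. Leukocyte markers lay at 11.4 to 40.5 CPM in MKO and 7.59 to 22.9 CPM in Ctrl libraries. The sum of the smooth muscle and pericyte list is led by desmin, which cardiomyocytes also make, and lay at 3744 to 4675 CPM in MKO and 3870 to 4411 CPM in Ctrl libraries. Dcn, decorin, of fibroblasts, lay at 30.8 to 71.8 CPM in MKO and 8.33 to 44.6 CPM in Ctrl libraries. Rgs5, of pericytes, lay at 21.2 to 55.4 CPM in MKO and 3.48 to 50.7 CPM in Ctrl libraries, and C1qb, of macrophages, at 1.35 to 5.34 CPM and 0.498 to 1.93 CPM. Cd68, also of macrophages, stood the other way, at 0.592 to 1.21 CPM in MKO and 0.924 to 2.80 CPM in Ctrl libraries.

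Other matrix and marker genes showed the same spread. Postn, a matrix protein of activated fibroblasts, had a log2 ratio of 0.93 ± 0.41, Mmp2, a matrix protease, one of 0.98 ± 0.38, and Mfap5, a microfibril protein, one of 0.83 ± 0.26 (edgeR, adjusted p = 0.772, 0.717 and 0.698). Plvap, of the endothelial diaphragm, had 0.84 ± 0.26, Vtn, vitronectin, 0.93 ± 0.38, and Bst2, an interferon-induced membrane tether, 0.93 ± 0.31. Mesothelial markers were positive for 5 of 8, Schwann and neuronal markers for 2 of 3, and conduction system markers for 8 of 9 (median 0.35). Both tested erythroid and platelet markers, 2 of 2, were negative (median -0.44). The list summed to 1.53 to 11.6 CPM in MKO and 1.12 to 16.4 CPM in Ctrl libraries, with Hba-a1 and Hba-a2 at 0 in all 12, as were Shox2, Retn and Cfd of other lists. Of 11 adipocyte markers 1 was tested, and the list summed to 53.2 to 64.6 CPM in MKO and 49.5 to 69.6 CPM in Ctrl libraries.

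**Figure D4:**
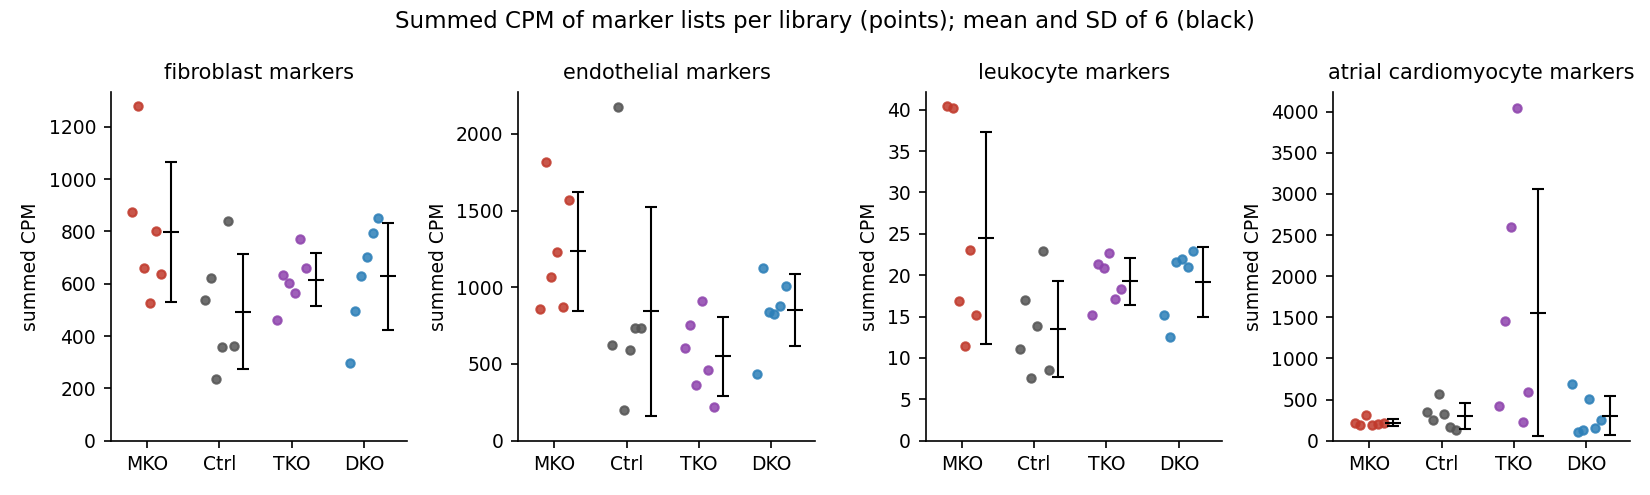
Summed CPM (vertical axes) of 4 marker lists in each library of MKO, Ctrl, TKO and DKO (horizontal axes); points are libraries, black marks the mean and SD of 6. MKO and Ctrl overlap in all 4 lists, and Ctrl 2 at 2172 CPM has the highest endothelial sum.

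Cardiomyocyte markers stood beside these as follows. Of 17 ventricular markers 16 had a negative log2 ratio (median -0.14), and 4 reached an unadjusted p under 0.05 in edgeR. These 4 were negative, and 2.61% of all genes were negative at that threshold. The sums of the 17 markers overlapped, at 139900 to 167900 CPM in MKO and 158600 to 195600 CPM in Ctrl libraries. Of 12 atrial markers 7 were negative (median -0.47, and -0.01 in the 22 libraries without Ctrl 3 and DKO 1). The atrial sum lay at 187 to 307 CPM in MKO libraries and 133 to 571 CPM in Ctrl libraries, with Ctrl 3 the highest. The part of other cell types and of depth in the differences of single genes was not tested.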

How the data were processed

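Polyadenylated RNA of sorted cardiomyocytes became full-length cDNA (SMART-Seq v4) and dual-indexed Nextera XT libraries, per the labels. Since strand is not kept by these kits, reads of a gene and of one that overlaps it or runs antisense are mixed. The authors deposited whole-number read counts for 23337 genes. Per the submitters' processing notes, STAR, featureCounts and DESeq2 were used with build mm10, without versions. No source used here states how multi-mapping reads were treated, and counts of genes that have close copies are uncertain for that reason. The authors also deposited a table for this pair of groups, with log2 fold changes, their errors, p-values and adjusted p-values and a mean signal (the mean normalized count), per the file headers. A DESeq2 refit on 11 libraries, without Ctrl 3, matched its log2 fold changes within 0.001 for 100% of genes.

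The main test was the two-sided quasi-likelihood test of edgeR 4.0.16 under R 4.3.3 (TMM scaling, filterByExpr with a minimum count of 10), with all 24 libraries in 1 fit and a coefficient per group. This left 12281 genes, and Benjamini-Hochberg adjustment ran over them. Contrasts were MKO minus Ctrl, TKO minus DKO and their difference. DESeq2 1.42.0 and limma 3.58.1 (voom with quality weights) were alternatives, beside other scalings, filters and sets of libraries. The set of 22 libraries left out Ctrl 3 and DKO 1. The fits were tested on simulated data. The 60 pairs of libraries within groups were checked for repeated deposits, and their chi-square statistic per gene was at least 6.83, so none agreed within sampling noise. Gene lists (27 pathway and 11 marker lists, 1007 of 1008 entries matched) were described by counts and medians and not tested. Lists share members. The members, lists and rules were chosen with earlier results of these data known. Named were Myocd, its relatives and Srf, genes called in the deposited table, the 12 top-ranked genes in each direction and up to 4 genes of each list by smallest p, without sex-linked markers, clone names and pseudogenes, and not all are printed. Npdc1 was named after its values were seen.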

Additional observations from a re-analysis of the deposited data

Results flagged for a closer look

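A single library stood apart from the other 5 of its group in 18 of 184 sets of 6 values examined, and chance alone flags about 5% of such sets. In Ctrl 2, with an endothelial marker sum of 2172 CPM, this held for Cfl1 (84.9 CPM), Cap1 (9.01 CPM), Actb (228 CPM), Rgs5 (50.7 CPM) and Vtn (17.9 CPM), all higher than in the other Ctrl libraries. In MKO 3 it held for Kcnip2 (85.1 CPM) and the atrial marker sum (307 CPM), both the highest of MKO. Mmp2 was highest in MKO 2 (35.0 CPM) and Trdn lowest in MKO 6 (358 CPM). In DKO 1, the shallowest library at 5.83 M reads, it held for Tnnc1 (3697 CPM), Mtch1 (467 CPM), Itgb1bp2 (535 CPM), Srf (105 CPM), Ptpra (41.9 CPM) and Cd44 (63.7 CPM). Hrasls stood apart in TKO 3 (11.5 CPM) and Etv5 in DKO 6 (20.9 CPM). What sets these libraries apart was not tested.

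The difference between MKO minus Ctrl and TKO minus DKO was called by edgeR's interaction test for 2 of the genes named. It was -0.58 on the log2 scale for Mfge8 (adjusted p = 0.0393) and -1.42 for Etv5 (adjusted p = 0.00171), with the larger log2 ratio in TKO minus DKO for both genes. The call for Mfge8 was lost without any of 13 single libraries.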

How the results depend on the processing

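MKO versus Ctrl had 0 calls in edgeR under RLE or upper quartile scaling, other filters, 12 or 22 libraries and the replicate block. Calls numbered 1 with DESeq2 on 24 libraries, 32 on 12 and 15 on 11 (the last chosen after seeing the data), 3 with voom, and 0 to 1 when 1 library was left out. TKO versus DKO had 1239 calls with 22 libraries, 1561 with voom, 908 with the replicate block and 495 to 1100 without 1 library, the lowest without TKO 4. The interaction count of 57 was 130 with 22 libraries, 191 with DESeq2, 175 with the replicate block, 762 with voom and 14 to 585 without 1 library. It moved by over 1.5 times without Ctrl 2, 3, 4 or 6, MKO 1, 2 or 5, TKO 3, 4 or 6, or DKO 1, 2 or 6. The cause was not tested. Replicate numbers did not pair the libraries: same-numbered MKO and Ctrl deviations correlated at -0.05 to 0.73 across genes, and 1 of 6 MKO libraries matched its own number best. The log2 ratio of Srf lay between -0.006 (without MKO 3) and 0.140, and that of Mtch1 in TKO minus DKO between -0.033 and 0.311, with a negative sign without DKO 3, 4 or 5 or TKO 6 (-0.002, -0.014, -0.033 and -0.025). Myocd lay between -0.46 and -0.29 without 1 library and was never called. At this depth 11 of 20 leukocyte and 10 of 11 adipocyte markers were too low to be tested.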

Other observations

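DESeq2 on the 12 libraries called genes that neither the deposited table nor the ranking names, and the following were chosen after their values were seen. Lower in MKO were Myl1, a fast skeletal myosin light chain (log2 ratio -0.72 ± 0.18, adjusted p = 0.0341), Prune2 (-0.63 ± 0.15, adjusted p = 0.0131), Grip2, a scaffold for receptors (-0.71 ± 0.17, adjusted p = 0.0234), and Prmt5, an arginine methyltransferase (-0.24 ± 0.06, adjusted p = 0.0452). Higher in MKO were Emilin2, an elastic fibre glycoprotein (0.26 ± 0.07, adjusted p = 0.0319), Mib1, a ligase of Notch ligands (0.55 ± 0.14, adjusted p = 0.0319), and Aldh1b1, a mitochondrial aldehyde dehydrogenase (0.34 ± 0.08, adjusted p = 0.0251). With limma voom with quality weights, Hs6st2, a heparan sulfate sulfotransferase, stood lower by a log2 ratio of -0.97 ± 0.18 (adjusted p = 0.0444). None of these was called by edgeR.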
